A study of Oryza sativa with 3 samples.

Results

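In roots of rice seedlings exposed to vanadium, 58 of 29689 loci on the array passed from a signal well above background in water on all 3 arrays to one that was not well above background in vanadium on any array. These loci were chosen by the detection flags that the scanner software gave each spot in its green (water) and red (vanadium) channel. A locus was left out where another of its probes was well above background in vanadium on every array. Well above background is called detected from here on. The loci were held by 64 probes, and 6 of them had 2 probes that each met the rule. They made up 0.294% of the 19735 loci detected in water on every array. The converse class, detected in vanadium on every array and in water on none, held 519 loci, or 2.46% of the 21097 loci detected in vanadium on every array. The rule used the contrast of vanadium with water on all 3 arrays, so the falls below are described and not tested.

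Both groups were roots of 6-day-old Oryza sativa seedlings of cultivar TN-67, one exposed to 1 mM vanadium and one to water. Each array held amplified RNA of both groups of 1 biological replicate, with vanadium in Cy5 (red) and water in Cy3 (green) and the dyes never swapped, so treatment and dye cannot be told apart. The labels give no exposure time, and the series title calls the stress early. RNA came from whole roots, where fewer cells of a type and less RNA per cell cannot be told apart.

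On a dual-colour array, the RNA of both groups binds to the same probe, and each dye is read separately. A low-abundance transcript can therefore be above the background in one channel and too dim to call in the other. Vanadium is a transition metal, and its oxyanion vanadate resembles phosphate in shape and inhibits phosphatases and ion-pumping ATPases. The array identifies a rice gene by a locus number whose first digits give the chromosome and whose last digits rise along it. Neither the array files nor the reference table pair these numbers with gene names, so no role is given for any locus.

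The limit between detected and not detected was a sharp one on each array. In background-subtracted intensity, the lowest detected water signals were 26.4, 50.4 and 61.0 on replicates 1, 2 and 3. In the vanadium channel the limits were 18.9, 45.4 and 45.8. The vanadium limit was thus the lower one on all 3 arrays, before any scaling between channels. The water signal of the 58 loci had a median of 63.4 on replicate 1 (26.9 to 119), 74.8 on replicate 2 (51.5 to 174) and 91.8 on replicate 3 (61.7 to 258). Their vanadium signal had a median of 10.9 on replicate 1 (-2.66 to 18.7), 29.6 on replicate 2 (-5.31 to 45.3) and 34.5 on replicate 3 (2.36 to 44.9). At 51 of the 58 loci the lowest water signal of the 3 arrays was above the highest vanadium signal, although these signals were not scaled between arrays. The rule set water above and vanadium below a limit on every array, so much of this separation was built in. The share over all loci was not counted, and nothing is read from it. The water signal was highest on replicate 3 at 45 loci, on replicate 2 at 9 and on replicate 1 at 4. The water limit was also highest on replicate 3, so the rule built in a part of this order.

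**Figure D1:**
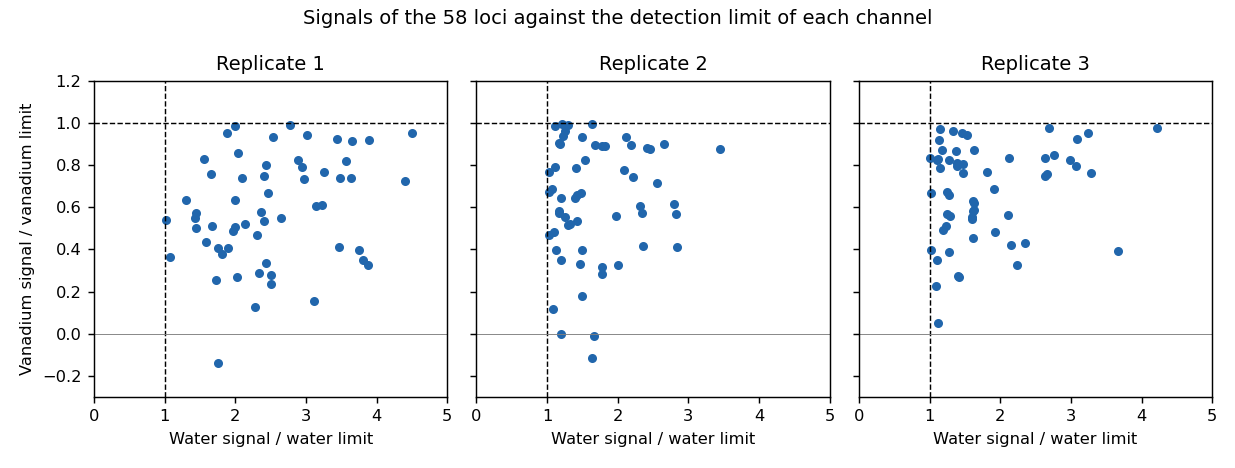
Background-subtracted signal of each of the 58 loci divided by the detection limit of its channel, water on the x axis and vanadium on the y axis, with 1 panel for each replicate array and 1 point for each locus. By the rule every point lies right of 1 and below 1 (dashed lines), and many lie close to 1 on one axis or the other.

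Loss from detection did not mean loss of signal. By the software's laxer flag, positive and significant against background, 51 of the 58 loci still had a vanadium signal on all 3 arrays, 5 on 2 arrays and 2 on 1 array. On replicates 1, 2 and 3 the flag was missing in vanadium at 3, 5 and 1 of the 58 loci. Over all 42105 locus spots it was missing at 5550, 6235 and 6301. Most spots on the array thus carry this flag, and no contrast with other loci is read from the count. Set against 153 negative control spots, the vanadium signal was above the 95th percentile of these controls on all arrays at 42 loci, on 2 arrays at 10 and on 1 array at 6. For vanadium, that percentile stood at 2.93, 18 and 19.5 on replicates 1, 2 and 3. The share of all loci above it was not counted. The water signal was above the corresponding percentile on all arrays at all 58 loci. This was fixed by the rule, since that percentile stood at -1.61, 4.89 and 2.31, below the water limit on each array. A background-subtracted vanadium signal below 0 was found at 1 locus on replicate 1, 3 on replicate 2 and 0 on replicate 3. The 58 loci are therefore loci with a dim vanadium signal, and for most of them not an absent one.

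The lost loci were dim in water as well. Their normalized water level had a median of 7.32 on the log2 scale (7.09 to 7.85), against 9.5 (7.0 to 17.47) for the 19088 loci detected in water on all arrays that had a usable value on every array. The median member stood at percentile 3.02 of these loci, the lowest at 0.0943 and the highest at 15.9. All 58 were below the median water level. The same range of water levels held 3017 of the loci detected in water. A locus brighter in water would have had to fall further to meet the rule, so the rule itself favours dim loci.

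**Figure D2:**
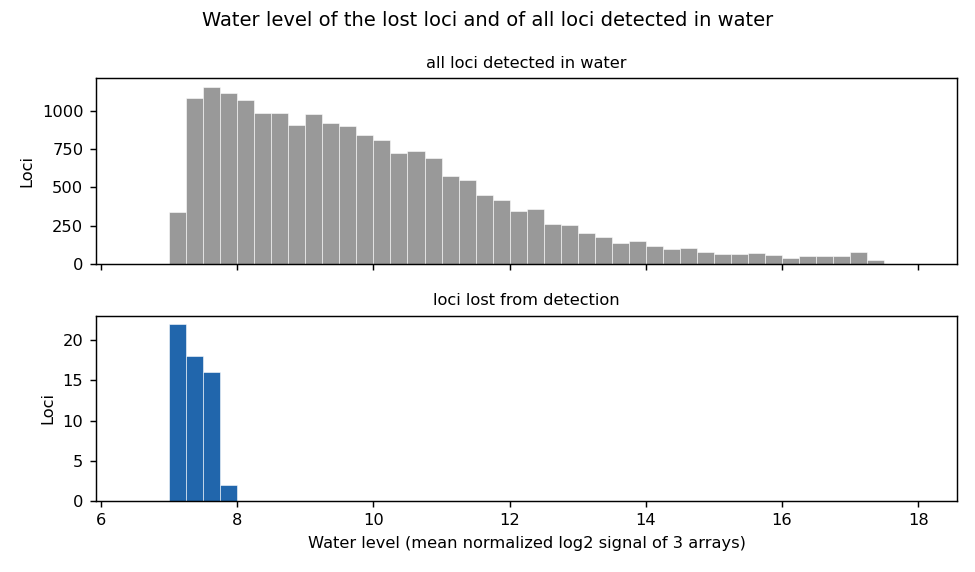
Number of loci (y axis) by mean normalized log2 water signal of 3 arrays (x axis, bins of 0.25), for all loci detected in water (upper panel) and for the lost loci (lower panel). The lost loci fill only the bins from 7 to 8, with 22, 18, 16 and 2 loci in turn.

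The size of the fall differed between ways of processing. By the log ratio of the scanner software, the log2 ratio (vanadium over water, mean of 3 arrays) had a median of -2.01 over the 58 loci and ran from -3.10 to -0.95, where all loci tested had a median of -0.12. With a normexp background correction with an offset of 50 and loess normalization, the median of the same loci was -0.58, from -0.95 to -0.25, where all loci tested had a median of 0.02. These ways differ in both the background correction and the normalization of the dyes. With the background handled otherwise before the same loess step, the median was -0.98 (normexp with an offset of 0) and -0.88 (plain subtraction with a floor of 1). The normalized ratio was below 0 on all 3 arrays at each of the 58 loci. On that scale 0 of the 58 loci reached a fall of 2-fold, while 56 did so by the scanner log ratio. Of all 21430 loci, 343 were called lower by more than 2-fold on that scale (limma, adjusted p under 0.05). The 0 depended on the background step. With an offset of 0, 28 of the 58 and 513 of all loci were so called, and with a floor of 1, 24 and 475. By limma with Benjamini-Hochberg adjustment over 21430 loci, 58 of 58 were called lower in the normalized fit, where 21.2% of all loci were, and 56 were lower by at least 2-fold in the scanner log ratio, where 5.22% of all loci were. The choice of the loci used this contrast, so nothing is read from any of these counts. Since the vanadium signal was not well above background, the normalized water mean was also set against a floor, the higher of the locus's own vanadium signal and the lowest normalized signal of any probe detected in vanadium. At 55 of the 58 loci the fall against this floor equalled the normalized fall within 0.001, so it sets no firm lower limit. These falls ran from 1.19-fold to 1.93-fold, with a median of 1.49-fold or 0.58 on the log2 scale. With the 5th percentile of detected signals as the floor the median was 0.20.

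A ratio to a channel below its detection limit has no exact size. At 9 of the 174 values of the 58 loci on single arrays, held by 7 loci, the vanadium signal was not positive and significant. There the processed signal behind the scanner log ratio was a positive number between 4.60 and 6.77, also where the background-subtracted signal was below 0, so such a ratio stands on a substitute. Over the 51 loci with no such value, the mean scanner log2 ratio had a median of -1.92 and ran from -2.97 to -0.95. The median over the lost loci was much the same on each array, at -2.06, -1.78 and -1.98 by the scanner log ratio and at -0.52, -0.61 and -0.61 after normalization, on replicates 1, 2 and 3. Single loci were less even. The standard deviation of a locus's scanner log2 ratio over the 3 arrays had a median of 0.44 and reached 1.16.

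**Figure D3:**
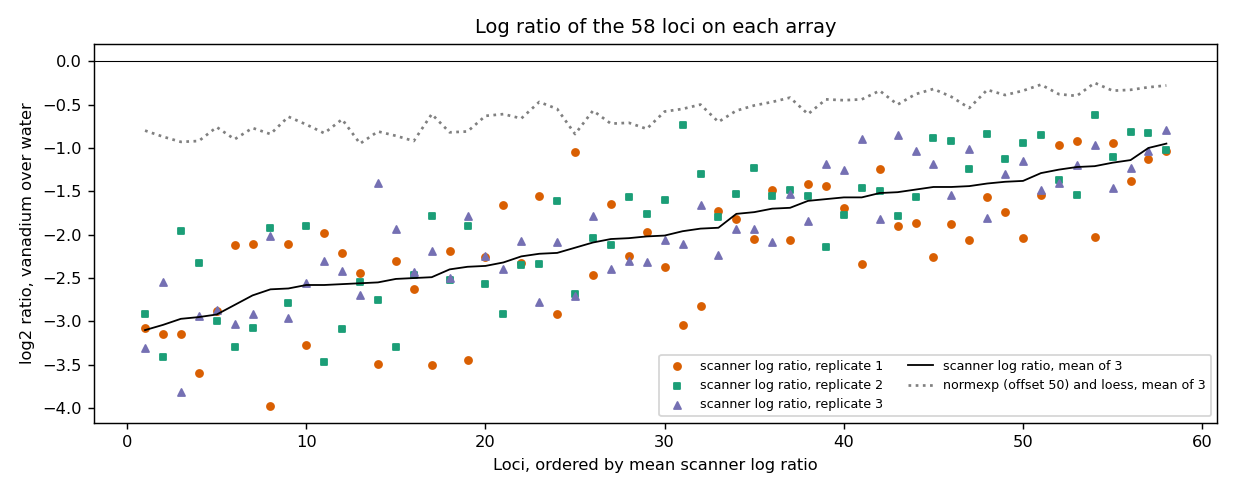
Log2 ratio of vanadium over water (y axis) for the 58 loci, ordered by mean scanner log ratio (x axis). Symbols are the scanner log ratio on each array, of which 9 stand on a substitute for the vanadium signal, the solid line is their mean, and the dotted line is the mean normalized ratio of the same loci, which lies between -0.95 and -0.25.

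Among the loci brightest in water, Os02g0206700 on chromosome 2 had the highest level, at percentile 15.9. Its water signal was 116, 174 and 182 on replicates 1, 2 and 3, and its vanadium signal 13.7, 39.9 and 37.8. Its scanner log2 ratios of -2.63, -2.46 and -2.43 differed little between arrays, with a mean of -2.50 ± 0.11 (SD, n = 3 arrays). Every water signal of this locus was above every vanadium signal, as at 51 of the 58 loci, and the rule built in much of this. Os03g0339900 had water signals of 83.1, 118 and 258 and vanadium signals of 11.5, 26.0 and 44.8. By the brighter of its probes that met the rule, it had the largest normalized fall of the 58 loci, with a log2 ratio of -0.95 ± 0.12 (SE, n = 3 arrays). The scanner log2 ratio of that probe was -2.56 ± 0.13 (SD, n = 3 arrays). With the mean over its probes the normalized ratio was -0.78, and its fall was then no longer the largest. At the brighter probe of Os03g0339900 both signals were highest on replicate 3. Its scanner log2 ratio was -2.44, -2.55 and -2.70 on replicates 1, 2 and 3, more even than its level. The normalized log2 ratio of that probe was less even, at -0.65, -0.97 and -1.21. At the other probe that met the rule, the scanner log2 ratio was -2.53 on replicate 2 and -3.29 on replicate 3.

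Os03g0140400 had water signals of 119, 143 and 129 on replicates 1, 2 and 3 and vanadium signals of 18, 18.7 and 38.2. Its water level was even and its vanadium level was highest on replicate 3, where its scanner log2 ratio was -1.94, against -2.30 and -3.29 on replicates 1 and 2. Os02g0550800 had water signals of 90.9, 106 and 188 and vanadium signals of 17.5, 42.3 and 42.4, and Os12g0137700 had water signals of 64.4, 134 and 163 and vanadium signals of 15.2, 40.9 and 34.7. Neither of these was among the 10 with the largest fall against the floor, and their scanner log2 ratios were -2.02 ± 0.28 and -2.05 ± 0.38 (SD, n = 3 arrays).

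Further loci among the 10 with the largest fall against the floor lay on chromosomes 9, 10 and 11. Os10g0190100 had water signals of 103, 129 and 131 on replicates 1, 2 and 3 and vanadium signals of 6.18, 32.5 and 19.3. Its scanner log2 ratio was -2.95 ± 0.64 (SD) and its normalized ratio -0.92 ± 0.08 (SE, n = 3 arrays). Os11g0635500 had water signals of 66.0, 122 and 223 and vanadium signals of 5.23, 40.0 and 18. Its scanner log2 ratio was -2.97 ± 0.94 (SD), lower on replicates 1 and 3 than on replicate 2. Os09g0516300 was more even, with water signals of 94.1, 117 and 128, vanadium signals of 15.5, 27.5 and 25.8, and a scanner log2 ratio of -2.40 ± 0.19 (SD). At these 3 loci no water signal was as low as any vanadium signal.

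Os09g0304500 had water signals of 103, 75.2 and 144 on replicates 1, 2 and 3 and vanadium signals of 17.4, 8.16 and 19.7. Its scanner log2 ratio was -2.12 on replicate 1 and -3.03 on replicate 3, and on replicate 2 the vanadium signal was not positive and significant. At Os11g0291500 the vanadium signal was below 0 on replicates 1 and 2, at -2.66 and -5.31, and 36.4 on replicate 3, beside water signals of 46.4, 82.1 and 188. It was 1 of the 2 loci with a positive and significant vanadium signal on a single array. The other was Os03g0221700, chosen after its values were seen, with vanadium signals of 7.72, 5.24 and 2.36 beside water signals of 46.2, 54.9 and 68.3.

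At 2 further loci, 1 array carried much of the spread. Os02g0261000 had a vanadium signal of 2.97 on replicate 1 against 35.4 and 44.9 on replicates 2 and 3, with water signals of 82.4, 105 and 164. Its scanner log2 ratios were -1.92 and -2.01 on replicates 2 and 3, and on replicate 1 the vanadium signal was not positive and significant. Os03g0168300 differed the other way, with a ratio of -1.05 on replicate 1 against -2.68 and -2.71 on replicates 2 and 3. Its water signal was 52.8 on replicate 1 and 141 and 201 on the others, and its vanadium signals were 18.7, 28.0 and 35.1. Both were among the 10 with the largest fall against the floor, with normalized log2 ratios of -0.84 ± 0.09 and -0.84 ± 0.16 (SE, n = 3 arrays).

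A few loci kept well clear of the vanadium limit on every array, and these were singled out after their values were seen. The highest vanadium signal of the 3 arrays, as a percentage of the limit, was 39.8% at Os05g0595000, 40.8% at Os03g0221700 and at Os04g0445000, 41.3% at Os03g0839800 and 41.4% at Os12g0282000. The median over the 58 loci was 87.1%. Os03g0839800 had water signals of 91.5, 60.8 and 136 and vanadium signals of 7.80, -0.126 and 15. Its scanner log2 ratio was -3.08 on replicate 1 and -3.31 on replicate 3, and on replicate 2 the ratio stood on a substitute. Os12g0282000 had the most even ratio, -2.92 ± 0.07 (SD), with water signals of 64.3, 119 and 85.6 and vanadium signals of 6.36, 18.8 and 12.6. At each of these 5 loci the water signal was at least 1.09 times the water limit on every array, and none was among the 10 brightest in water.

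The 5 loci nearest the vanadium limit from below were within a few percent of it on 1 array. Os08g0492000 reached 99.7% of the limit, Os05g0428700 99.5%, Os01g0142100 99.1%, Os07g0663600 98.9% and Os03g0168300 98.7%. At Os05g0428700 the vanadium signal was 45.1 on replicate 2 and 5.42 and 25 on replicates 1 and 3, beside water signals of 61.9, 61.2 and 98.0. Os08g0492000 had vanadium signals of 9.20, 45.3 and 18.1 and water signals of 52.1, 82.8 and 62.5. Os07g0663600 lay near the limit on replicates 2 and 3, with vanadium signals of 14.4, 44.9 and 44.1 and water signals of 43.5, 64.9 and 81.1, and had one of the smallest mean scanner log2 ratios, -1.0 ± 0.15 (SD, n = 3 arrays). Os01g0142100 had vanadium signals of 18.7, 21.3 and 26.7 and water signals of 73.1, 51.5 and 98.4.

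Just outside the rule stood 78 loci that were detected in water on all arrays and in vanadium on exactly 1. The 5 brightest of them in water each had a higher mean water signal over the arrays than any lost locus. Os08g0113000 had water signals of 301, 185 and 265 on replicates 1, 2 and 3 and vanadium signals of 34.8, 40.8 and 39.5, of which the first was above its limit of 18.9. Os07g0201500 had water signals of 148, 306 and 283 and vanadium signals of 11.4, 85.8 and 26.1. Os11g0687000 and Os02g0554800 passed the vanadium limit on replicate 2 at 53.0 and on replicate 3 at 62.7, respectively. Os07g0106900 passed it on replicate 1, at 34.1. Their scanner log2 ratios ran from -3.58 to -2.09 over these 5 loci and all arrays, within the range of the 58 loci.

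Loci with 2 probes that met the rule allow one look within a locus, although both probes lie on the same arrays and share the RNA. The mean scanner log2 ratio of both probes differed by 0.03 at Os01g0736600, 0.05 at Os03g0339900, 0.10 at Os06g0717600, 0.12 at Os02g0725200, 0.21 at Os05g0176300 and 0.27 at Os10g0469900. At Os01g0736600 the water signals were 100.4, 111 and 111 at one probe and 87.9, 116 and 116 at the other. Its vanadium signals were 6.62, 33.9 and 35.2 at one and 14.5, 20.3 and 24.7 at the other, so the means of the ratios were closer than their values on single arrays. At Os05g0176300 both probes had low vanadium signals throughout, 14.5, 14.8 and 12.3 at one and 3.66, 10.8 and 26.6 at the other, where the first was not positive and significant. Whether both probes read the same transcript was not tested. Os05g0176300 and 4 of these other loci were singled out after their values were seen, since the rule for naming loci took only Os03g0339900.

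Most of the 58 loci had no second reading. The array carried a single probe for 41 of them and several for 17. At 4 of these 17 every probe met the rule. The other 13 loci had 19 further probes that did not meet it. Of these, 5 were detected in neither channel on any array, 9 were detected in water on 1 or 2 arrays and 5 in water on all arrays. In vanadium, 8 of the 19 were detected on 1 or 2 arrays. A further 20 loci had a probe that met the rule but were left out because another of their probes was detected in vanadium on every array. Those 20 loci had 68 probes, of which 44 were detected in vanadium on every array.

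The lost loci were spread over the genome. Every one of the 12 chromosomes held between 2 and 9 of them. As a share of loci detected in water, the highest was 0.671% on chromosome 9 (7 of 1043) and the lowest 0.133% on chromosome 7 (2 of 1506). None was next to another in locus number order among loci on the array. The closest were Os02g0206700 and Os02g0207900, 5 loci apart, and Os01g0114200 and Os01g0115200, 9 loci apart, of which the last 3 were singled out after their values were seen. The next closest pair was 55 loci apart. Os02g0207900 had water signals of 99.2, 72.1 and 118 and vanadium signals of 7.55, 24.2 and 22.2. Os01g0114200 and Os01g0115200 had mean scanner log2 ratios of -1.44 ± 0.55 and -1.22 ± 0.31 (SD, n = 3 arrays), above the median of the 58 loci.

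The 116 loci directly beside a lost locus gave a measure that the rule did not use. Of these, 81 could be tested, and 21 (25.9%) were called lower and 25 (30.9%) higher (limma, adjusted p under 0.05). Over all loci tested, 21.2% were lower and 29.5% higher, so both shares were near the background. The scanner log ratio gave another split over all loci, with 4946 higher and 6899 lower against 6329 and 4537 in the normalized fit. Fitted without the pairing of both channels on an array, 3425 were higher and 1499 lower.

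The names of the probes give the kind of sequence they were designed from. An mRNA was named for 46 of the 64 probes (71.9%), against 81.9% of 28548 probes detected in water on all arrays and 77.1% of all 41889 locus probes. The class COMBINER_EST, which the files do not explain, held 15 (23.4%), against 14.1% and 16.6%. The annotated region was coding sequence with 3′ UTR for 44 probes (68.8%), against 76.0% and 71.6%. Among probes of the lost loci, only those named for an mRNA carried such a region, so this share follows the mRNA share. The counts were 44 beside 46 mRNA probes, against 21703 beside 23385 and 29979 beside 32312. No difference in region is read from them. On the glass, no member spots were closer than 2 rows or columns to each other.

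How many loci were lost, and which, rested on the definition of detection. With the same signal limit in both channels, the higher of both limits on each array, 131 loci were lost, including all 58, and 390 were seen only under vanadium. That limit was the water limit on every array. Raising the vanadium limit to it can only add lost loci and remove gained ones. The direction of both changes and the overlap with the 58 were thus fixed by construction. With the positive and significant flag in place of the stricter one the count was again 58, but 0 of these loci were among the 58 described here, and 325 were seen only under vanadium. With the 95th percentile of negative controls as the limit, a definition added after the data were seen, 373 loci were lost, again with 0 of the 58 among them, and 50 were seen only under vanadium. Among the definitions given here, the lost class was the larger one only with negative controls as the limit. For the other changes to the rule the gained class was not counted.

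**Figure D4:**
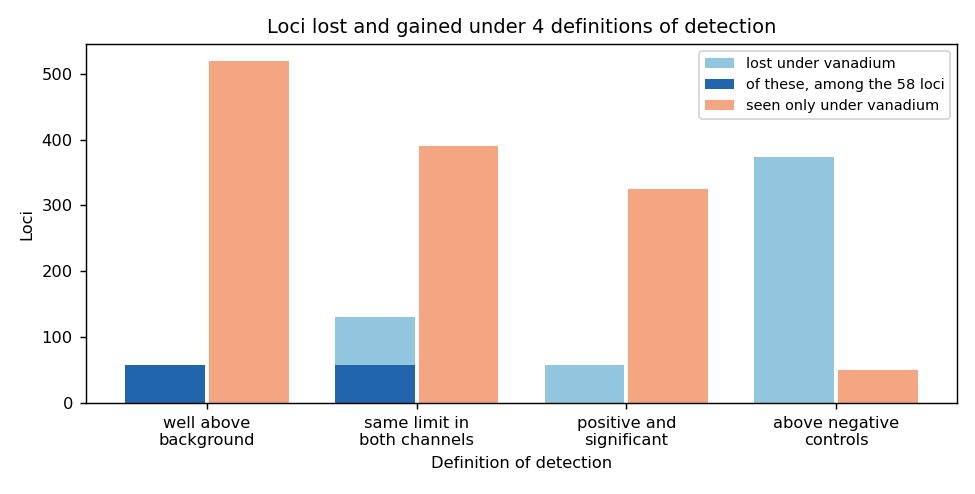
Number of loci (y axis) lost under vanadium and seen only under vanadium, by definition of detection (x axis), with the dark part of a bar giving the loci shared with the 58 described here. The gained class is larger under 3 definitions (519, 390 and 325 loci) and smaller with negative controls as the limit (50 against 373).

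The rule asked for 3 arrays, and each array alone changed the count. By the array barcodes, replicate 1 was on slide 1 and replicates 2 and 3 were on slide 2. What is particular to replicate 1 therefore cannot be told apart from its slide. With slide as a block, the median normalized log2 ratio of the lost loci stayed at -0.58. That fit only gave both slides equal weight, so it cannot show whether slide mattered. Applied to 2 arrays, the rule gave 101 loci without replicate 1, 105 without replicate 2 and 136 without replicate 3. These included 57, 58 and 58 of the 58 loci. A rule on fewer arrays is met by more loci by construction, and a locus that meets it on 3 arrays meets it on 2, the rule on other probes aside.

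The tissue was checked with locus numbers listed from general knowledge. All 3 loci listed for root were detected in both channels on every array. Of 4 seed storage loci 0 were detected in water on any array. Of 5 loci listed for green shoot, 1 was detected in water and 3 in vanadium on all arrays. The summed signal of the shoot list was 2794 in water and 231 in vanadium on replicate 1, against 288 and 566 on replicate 2 and 199.5 and 415 on replicate 3. None of these 12 loci was a lost locus. The part of shoot tissue in the water RNA of replicate 1 in these results was not tested.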

How the data were processed

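The authors deposited 3 array files, written by Agilent's Feature Extraction software (version 10.7.1.1) per the file headers. These hold the median intensity of each spot and of its local background, a background-subtracted intensity, a processed intensity (also dye-normalized by that software), a log10 ratio of red over green, and detection flags with values 0 or 1. A value table that the authors deposited is in log2 units. Its entries matched the log2 ratio of processed intensities, red over green, at 100% of 41882 probes with a single spot, within 0.001, with medians of -0.05, -0.19 and -0.21 on replicates 1, 2 and 3, so scale and direction were settled and it was not centred.

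Members were found by the deposited flags, and probes named for the area of a locus were left out. The lost loci, the lists and the alternatives were chosen with earlier results of these data known. For ratios, median intensities were corrected by normexp (offset 50) and normalized by loess within arrays, control spots at weight 0, outlier spots left out, and spots of one probe averaged (limma 3.58.1, R 4.3.3). Channel levels were further scaled by Aquantile. Probes detected in at least 1 channel on all arrays were kept, with the brightest for each of 21430 loci, or for a lost locus the brightest that met the rule. The mean ratio was tested against 0 by lmFit and eBayes (2-sided). Adjusted p-values are Benjamini-Hochberg's, with 0.05 as the limit for a call. The steps were tested on simulated data. Vanadium and water RNA of a replicate are paired by their array. No spot was saturated. With 3 arrays, their number limits the precision. Between 29259 and 31918 of 41889 probes were detected in water and between 31278 and 32243 in vanadium.

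Named were the 10 loci with the highest normalized water level, the 10 with the largest fall against the floor described above, the 5 nearest the vanadium limit, the 5 brightest in water among loci detected in vanadium on exactly 1 array, and any adjacent to one another, of which there were 0. This gave 16 lost loci and 5 outside the rule. Other loci are said to be chosen after their values were seen. Array sequences were not used here.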

Additional observations from a re-analysis of the deposited data

How the results depend on the processing

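The number of lost loci was 312 when detection on at least 2 of 3 arrays in water and on at most 1 in vanadium was enough, 131 with the same signal limit in both channels, and 101 to 136 when 1 replicate was left out. With negative controls as the limit it was 373, a choice made after seeing the data. It stayed within 1.5 times of 58 without the rule on other probes (78), with a stricter form of it (50), without probes with an outlier spot (58) and with the positive and significant flag (58, all different loci). The median log2 ratio of the lost loci, -0.58, was -0.98 with an offset of 0, -0.88 with background subtracted down to a floor of 1, and -2.01 both with the scanner log ratio and with the authors' deposited table, and -0.60 to -0.56 without 1 replicate. The median fall against a floor, 0.58 (log2) and at nearly every locus the same as the normalized fall, was 0.20 with the 5th percentile of detected signals as the floor, 1.12 without normalization between channels, and 0.56 to 0.60 without 1 replicate. The causes were not tested. Over all loci, higher calls fell from 6329 to 4143 with median centring, and lower calls rose from 4537 to 6899 with the scanner log ratio and 7001 with the authors' table. Fitted without the pairing of channels on an array (no replicate block), 3425 loci were higher and 1499 lower. The median of the lost loci stayed at -0.58, which was fixed in advance, since leaving out the pairing does not change a mean ratio. Of the 58 lost loci, 41 were then called lower, where 6.99% of all loci were. With median centring it was 44 of them and 3347 of all loci (15.6%), and without replicate 3 it was 44 and 13.5%. The choice of the 58 loci used this contrast, so nothing is read from these counts of them. Leaving out 1 replicate gave 4977 to 5739 higher and 2880 to 3653 lower, the fewest lower without replicate 3. Of 208 values of the 16 named loci over 13 alternatives, 67 moved by 1 SD over arrays or more. Some alternatives could not move a value, such as the fit without pairing and the fit that kept dim probes. The authors' table repeated the values of the scanner log ratio. The 67 of 208 is therefore no measure of stability. The direction of the values was fixed by the rule.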
